A study of Mus musculus with 2 samples.

Results

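Mitochondrial ribosomal proteins (MRPs) build the ribosome that works inside mitochondria. They were taken here as all genes of the count table whose symbol begins with Mrpl or Mrps and a digit, without pseudogenes, and whose counts in both libraries added up to 10 or more. This rule kept 77 of 77 such symbols, out of 17356 genes tested and 46095 genes in the table. By symbol, 48 belong to the large subunit (Mrpl) and 29 to the small subunit (Mrps).

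The RNA came from C3H10 cells, a mouse mesenchymal line that forms adipocytes after induction, whose strain the labels give as C57BL/6. One library, NC, was made from cells transfected with a negative control antisense oligonucleotide (ASO), and the other from cells transfected with an ASO against MALAT1, a nuclear long noncoding RNA. Both groups received 100 nM ASO before induction, were switched to maintenance medium after 2 days, and were collected at day 6 of differentiation. The paper gives isobutylmethylxanthine, dexamethasone, troglitazone and insulin for its induction medium, and insulin for its maintenance medium. Which of the ASOs was used for the sequenced culture is not given in the sources used here.

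The NC library held 58147539 counts and the MALAT1-knockdown library 61653549. With 1 library per group, no difference below has a replicate check. The log2 fold change compares CPM (counts per 1000000, after scaling by edgeR's TMM factors) in the knockdown library with those in the NC library, and its 95% interval covers counting error between these libraries only, so it compares libraries and not conditions. A gene was called when the log2 fold change reached 1 in either direction, that is 2-fold. Malat1 itself had 170402 counts in NC and 45396 in the knockdown library, a log2 fold change of -2.01.

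Mitochondria keep a small genome that encodes core subunits of the respiratory chain, and these are translated only by the mitochondrial ribosome. Its rRNAs come from the mitochondrial genome, whereas all of its proteins are encoded in the nucleus, made in the cytosol and imported. The large subunit forms peptide bonds and passes the growing chain to the inner membrane, and the small subunit binds and decodes the mRNA. Fat cells gain mitochondria as they differentiate.

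Most MRP genes were lower by a small amount in the MALAT1-knockdown library, and the amount differed between genes, from -0.61 for Mrpl12 to 0.17 for Mrps6 on the log2 scale among the 73 with 1000 or more counts summed over both libraries. Their log2 fold changes had a median of -0.20, with an interquartile range from -0.28 to -0.10, against a median of -0.0031 over all 17356 genes tested, whose interquartile range ran from -0.23 to 0.18. Of the 77 MRP genes, 68 were below 0, where 50.4% of all tested genes were. The 95% counting interval lay wholly below 0 for 57 MRP genes and wholly above 0 for 2, while it did so for 26.4% and 26.7% of all tested genes. No MRP gene reached 2-fold, a size that 9.85% of all tested genes reached (6.02% lower and 3.83% higher), but only 0.929% of the tested genes with 1000 or more counts, the class that holds 73 of the 77 MRP genes. At or below 80% of the control level were 11 MRP genes and 20.1% of all tested genes, while 0 MRP genes and 15.8% of all tested genes were higher by the same factor. The 9799 tested genes of that class had an interquartile range from -0.12 to 0.13. Of these, 31% had an interval below 0, 36% an interval above 0, 8.99% were at or below 80% of the control level and 7.08% were higher by that factor. Of the 73 MRP genes in it, 56 had an interval below 0, 2 had one above 0, 10 were at or below 80% and 0 were higher by that factor.

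**Figure D1:**
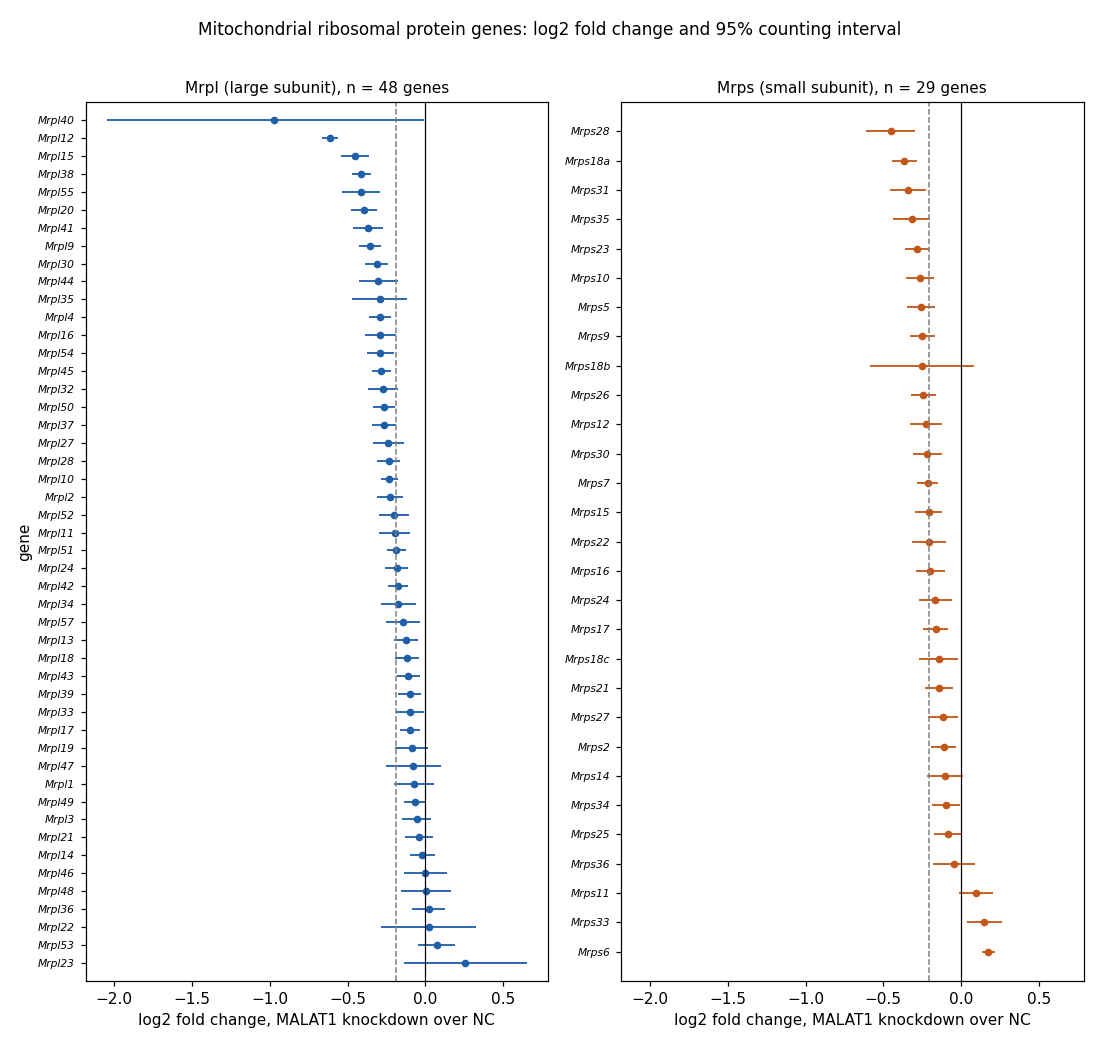
Log2 fold change (MALAT1-knockdown over NC, x axis) of each MRP gene (y axis), for the 48 Mrpl genes on the left and the 29 Mrps genes on the right. Points are single genes, bars the 95% counting intervals, dashed lines the medians of -0.19 and -0.21, and most points lie left of the solid line at 0.

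Together the MRP genes took 0.297% of the NC counts (95% exact binomial interval 0.295% to 0.298%) and 0.264% of the knockdown counts (0.262% to 0.265%). Their summed level was 2990 CPM in NC and 2616 CPM in the knockdown library, which is 87.5% of the control level. Single genes ranged from 26 to 8807 counts in NC with a median of 1984, and from 14 to 10702 counts in the knockdown library with a median of 1898.

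**Figure D2:**
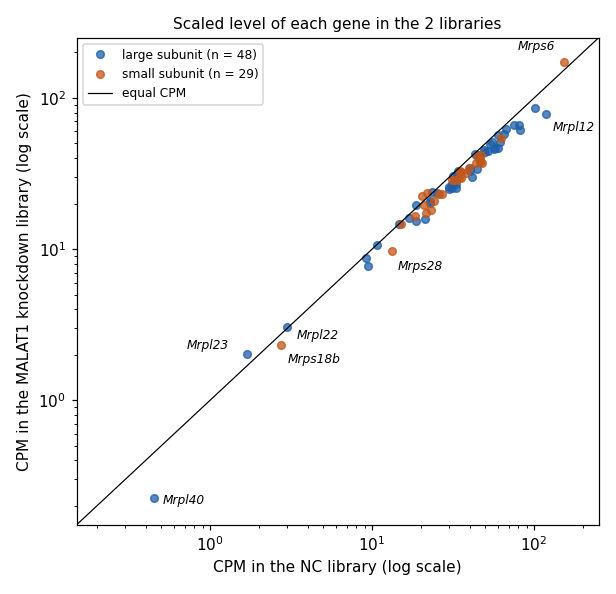
CPM of each MRP gene in the NC library (x axis, log scale) and in the MALAT1-knockdown library (y axis, log scale), with the line of equal CPM. Blue points are Mrpl genes and orange points Mrps genes, and most lie slightly under the line, whereas Mrps6, the highest in both libraries, lies above it.

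These are bulk libraries, in which fewer cells of a type and less RNA per cell cannot be told apart. Markers of several cell types differed between the libraries as well. All 14 adipocyte markers, Fabp4 and Adipoq among them, had intervals below 0 with a median log2 fold change of -1.27, and their summed level was 7924 CPM in NC and 3528 CPM in the knockdown library. For fibroblasts and preadipocytes, 10 of 11 markers tested had intervals above 0 with summed levels of 20078 and 22129 CPM, and Dlk1 was at 0 counts in both libraries. All 10 markers of dividing cells were above 0, with summed levels of 805 and 1224 CPM. Of 5 macrophage markers, Adgre1 and Ptprc were at 0 counts in both libraries. The other 3 had few counts and did not go one way. Cd68 had 172 counts in NC and 119 in the knockdown library, Lyz2 had 7 and 25, and Csf1r had 3 and 13. Their sums were 3.15 and 2.53 CPM. The part of adipocyte content and of cell division in the MRP values was not tested.

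Large and small subunit genes were set side by side, since a ribosome needs both in equal number. The median log2 fold change was -0.19 over the 48 Mrpl genes and -0.21 over the 29 Mrps genes, a difference of 0.014. Of the large subunit genes, 42 were below 0, 35 had intervals below 0 and 0 had intervals above 0. For the small subunit, these numbers were 26, 22 and 2. No test of the difference was run, as genes are not replicates of a condition.

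The sums over each subunit differed more than the medians. The Mrpl genes summed to 1950 CPM in NC and 1665 CPM in the knockdown library, a log2 ratio of -0.23 (95% counting interval -0.24 to -0.22). For the Mrps genes, the sums were 1041 and 951 CPM, a log2 ratio of -0.13 (-0.15 to -0.11). Accordingly, the ratio of large to small subunit counts was 1.87 in NC and 1.75 in the knockdown library. A sum gives most weight to abundant genes, here to Mrpl12 and Mrps6, which lay on opposite sides of 0. Without Mrpl12 the large subunit ratio was -0.21 (-0.22 to -0.19), and without Mrps6 the small subunit ratio was -0.19 (-0.21 to -0.17), an alternative chosen after the data were examined.

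Symbols do not give the subunit in every case. Mrps18a and Mrps30 carry a small subunit name, but their proteins sit in the large subunit of the mammalian mitochondrial ribosome, and Mrps36 is a component of the 2-oxoglutarate dehydrogenase complex and not of the ribosome. With these genes placed by structure, the median was -0.20 for 50 large subunit genes and -0.20 for 26 small subunit genes, a difference of 0.0016. The sums by structure still differed. Their log2 ratio was -0.23 (-0.24 to -0.22) for the large subunit and -0.12 (-0.13 to -0.10) for the small subunit. The ratio of large to small subunit counts by structure was 2.15 in NC and 1.99 in the knockdown library. These sums were not computed without their most abundant genes. Mrps18a had 2756 counts in NC and 2303 in the knockdown library, its log2 fold change being -0.37 (-0.45 to -0.29), whereas Mrps30 had 1984 and 1838 counts (-0.22, -0.31 to -0.12). Mrps36 had 876 and 912 counts, and its interval, from -0.18 to 0.09, spanned 0.

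The paralogs of Mrps18a differ in where they sit, since Mrps18b and Mrps18c are small subunit proteins. Mrps18c, the closest counterpart of the bacterial protein, had 1056 counts in NC and 1029 in the knockdown library, with a log2 fold change of -0.14 (-0.27 to -0.02). Mrps18b had only 159 and 144 counts, and its interval, from -0.58 to 0.08, spanned 0. Thus all 3 paralogs were on the same side, and the intervals of Mrps18a and Mrps18c did not overlap.

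Among large subunit genes with at least 100 counts, Mrpl12 was the lowest. Its protein forms the stalk that recruits translation factors and has also been described as a partner of the mitochondrial RNA polymerase. In GENCODE M21 (GRCm38), Mrpl12 spans chr11:120484613-120489065 (plus strand). It had 6872 counts in NC and 4831 in the knockdown library, that is 119 and 77.8 CPM. Its log2 fold change was -0.61 (95% interval -0.67 to -0.56), or 65.3% of the control level. Mrpl12 was the only MRP gene called lower when edgeR's exact test was run assuming a coefficient of variation of 0.1 between cultures (adjusted p under 0.05), a test that called 1079 of all tested genes (6.22%), and it was not called with 0.2. The other stalk proteins were closer to the median, with log2 fold changes of -0.23 for Mrpl10, which had 5821 and 5333 counts, and -0.20 for Mrpl11, which had 1709 and 1605 counts.

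The next lowest large subunit genes had 1219 to 4704 counts in NC. Mrpl15, a core protein inherited from bacteria, had 2373 counts in NC and 1866 in the knockdown library, a log2 fold change of -0.45 (-0.54 to -0.37). Mrpl38, part of the mitochondria-specific central protuberance, had 4704 and 3805 counts (-0.41, -0.47 to -0.35). Mrpl55 had 1219 and 986 counts, and Mrpl20, one of the rRNA-binding proteins of bacterial origin, had 2552 and 2093. Their log2 fold changes were -0.41 and -0.39. Mrpl41, a mitochondria-specific protein, had 1907 and 1587 counts (-0.37, -0.47 to -0.27). The intervals of these 5 genes overlapped each other, so that their order is not resolved even by counting, whereas that of Mrpl12 lay below all 5 of them.

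Mrpl44 and Mrpl45 have special roles. Mrpl44, an RNase III-like protein whose mutation causes cardiomyopathy in humans, had 1084 counts in NC and 946 in the knockdown library (-0.30, -0.43 to -0.18). Mrpl45, which ties the ribosome to the inner membrane, had 4627 and 4087 counts (-0.29, -0.35 to -0.22). Mrpl58, a peptidyl-tRNA hydrolase built into the large subunit, is listed under its older symbol Ict1 and so falls outside the rule. Ict1 had 1502 counts in each library, and the larger size of the knockdown library turns this into a log2 fold change of -0.11 (-0.21 to -0.0024).

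At the other end, the 4 highest large subunit genes with at least 100 counts were Mrpl23, Mrpl53, Mrpl22 and Mrpl36. Mrpl23, which lies near the peptide exit, had 98 counts in NC and 126 in the knockdown library, a log2 fold change of 0.25 (-0.14 to 0.65). Mrpl53 had 1075 and 1217 counts (0.07, -0.05 to 0.19). Mrpl22 had 173 and 189 counts, and Mrpl36 had 1355 and 1479. All 4 intervals spanned 0, so that no large subunit gene was higher beyond counting error.

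The lowest member by log2 fold change was Mrpl40, a central protuberance protein, but it had only 26 counts in NC and 14 in the knockdown library. Its log2 fold change of -0.98 had an interval from -2.05 to -0.01, and the choice of the count minimum decides whether it is included. The fewest counts were found for Mrpl40, Mrpl23, Mrps18b and Mrpl22, each with under 1000 counts summed over both libraries. The 10 nearest tested protein-coding genes, in RefSeq order on GRCm38.p6, had a median of 288 counts (mean of both libraries) around Mrpl40, 179.5 around Mrpl23, 690 around Mrps18b and 630 around Mrpl22, while the median of single genes was 844 over all genes tested. Over the other MRP genes, such neighbour medians had a median of 1828, but some were as low, such as 381 around Mrpl17 and 405 around Mrpl9, which were themselves well counted.

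Among small subunit genes, Mrps28 was the lowest, with 763 counts in NC and 600 in the knockdown library, a log2 fold change of -0.45 (-0.61 to -0.30). It was followed by Mrps18a, which is described above, and by Mrps31, with 1329 and 1131 counts (-0.34, -0.45 to -0.22). Mrps35 and Mrps23, like Mrps31, have no bacterial counterpart. Mrps35 had 1243 and 1074 counts (-0.32, -0.44 to -0.20), and Mrps23 had 2657 and 2353 (-0.28, -0.36 to -0.20). Mrps10, which has a bacterial counterpart, had 2053 and 1840 counts (-0.26, -0.36 to -0.17). These 6 intervals overlapped in every pair but were all below 0. Mrps22 and Mrps34, whose mutation in humans causes severe deficiency of oxidative phosphorylation, had log2 fold changes of -0.21 (1393 and 1300 counts) and -0.10 (2008 and 2017 counts). The interval of Mrps34, from -0.19 to -0.01, only just excluded 0. Its exons share 763 bases with those of Nme3 on the same strand and 1309 with those of Mapk8ip3 on the opposite strand. How reads there were counted is not given in the sources used here, so the value of Mrps34 is uncertain.

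The 2 MRP genes with intervals above 0 were both in the small subunit. Mrps6 had 8807 counts in NC and 10702 in the knockdown library, or 153 and 172 CPM, a log2 fold change of 0.17 (95% interval 0.13 to 0.22). It spans chr16:92058270-92112227 (plus strand), where its exons share 159 bases with those of Slc5a3, the gene of a myo-inositol transporter, on the same strand. Slc5a3 had 19399 and 25726 counts (0.30, 0.27 to 0.33), and how the counting split reads between these genes is not given in the sources used here, so the value of Mrps6 is uncertain. Mrps33, whose exons overlap no other gene, had 1173 and 1401 counts (0.15, 0.04 to 0.26). Mrps11 had 1264 and 1454 counts, and its interval, from -0.01 to 0.21, spanned 0.

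Per length of transcript, the most abundant MRP mRNA was Mrps6, with 137 CPM per kilobase in NC and 154 in the knockdown library. Mrpl12 followed with 90.5 and 59.1 CPM per kilobase, Mrps21 with 72.6 and 65.9, and Mrpl14, a protein at the interface of the subunits, with 66.9 and 66.0. In the knockdown library, Mrps21 and Mrpl14 were both above Mrpl12. For every gene the length was that of its longest annotated transcript (GENCODE M21), and which transcript the cells expressed was not measured, so that this order is approximate.

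Some MRP genes share exonic sequence with a neighbour. In GENCODE M21, exons of 32 MRP genes overlap those of another gene, on the opposite strand for 27 of them and on the same strand for 8. Of the 32, 23 overlap a protein-coding gene. Not every partner was counted, since some, such as Gm16755 at Mrpl12, were not matched to the count table. Oaz3 at Mrpl9 was at 0 counts in both libraries. The median log2 fold change was -0.25 over the 45 MRP genes without such an overlap, of which 39 had intervals below 0, and -0.11 over the 32 with one, of which 18 did. This held in both subunits. Without an overlap the median was -0.27 for 27 large subunit genes and -0.22 for 18 small subunit genes, and with one it was -0.10 for 21 and -0.14 for 11. The libraries were made with a directional kit, but whether strand was used in counting is not given in the sources used here, and the part of shared reads in this difference was not tested. Mrpl46 and Mrps11, a large and a small subunit gene that overlap each other head to head by 173 bases, had log2 fold changes of 0.0003 and 0.10, and both intervals spanned 0.

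**Figure D3:**
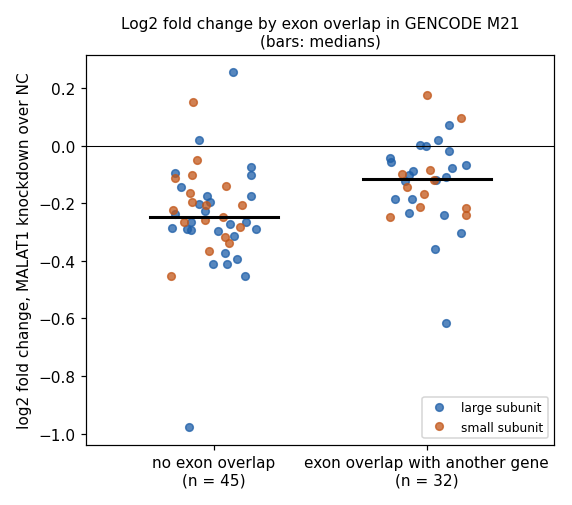
Log2 fold change (y axis) of MRP genes without (left, n = 45) and with (right, n = 32) an exon overlap with another gene in GENCODE M21. Points are single genes, coloured by subunit, and black bars the medians of -0.25 and -0.11.

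About as large a difference was seen in ancient as in more recent MRPs, as they were listed here. The mammalian mitochondrial ribosome kept many proteins of its bacterial ancestor and gained others. The lists were written from general knowledge, and they place Mrpl55, Mrps18a, Mrps18b and Mrps18c with the bacterial counterparts. Other placings were not tried. The 48 MRP genes listed with a bacterial counterpart had a median of -0.20, with 35 intervals below 0 and 1 above. The 28 listed as mitochondria-specific also had a median of -0.20, with 22 below and 1 above. Mrps36 was left out of this count.

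The mitochondrial ribosome also holds proteins whose symbols do not begin with Mrp, and 5 of these were listed. Ptcd3, a pentatricopeptide repeat protein at the mRNA entry, had 2675 counts in NC and 2267 in the knockdown library (-0.35, -0.43 to -0.26). Dap3, a GTP-binding protein of the small subunit, had 4223 and 3642 counts (-0.32, -0.38 to -0.26). Gadd45gip1, a large subunit protein close to the exit of the nascent chain, had a log2 fold change of -0.14, and Aurkaip1 of -0.09, with both intervals below 0. Chchd1, a small subunit protein, went the other way, with 1030 and 1240 counts (0.16, 0.04 to 0.28). Of the 5 intervals, 4 lay below 0 and 1 above.

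Genes that serve the mitochondrial ribosome were described by 4 lists, in which 0 genes reached 2-fold. That size was reached by 9.85% of all tested genes, but by only 0.929% of those with 1000 or more counts. Intervals lay below 0 for 26.4% of all tested genes and 31% of that class, and above 0 for 26.7% and 36%. All 11 translation factors were below 0, with a median of -0.26 and 10 intervals below 0. The lowest was Gfm1, the elongation factor that translocates the ribosome, with 4104 and 3290 counts (-0.43, -0.49 to -0.36), and the highest was Mtfmt, which formylates the initiator tRNA, with 637 and 666 counts (-0.04, -0.20 to 0.12). Of 20 genes of mitochondrial aminoacyl-tRNA synthesis, 14 had intervals below 0 and 0 above, with a median of -0.26. They ranged from Fars2, for phenylalanine, with 1157 and 882 counts (-0.50, -0.63 to -0.37), to Pars2, for proline, with 335 and 410 counts (0.18, -0.03 to 0.40).

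Assembly factors and enzymes that modify the mitochondrial rRNAs had a median of -0.16 over 26 genes, with 14 intervals below 0 and 0 above. Mrm2, a methyltransferase of the large rRNA, was the lowest with 495 and 367 counts (-0.54, -0.74 to -0.34), and Trmt61b was the highest with 149 and 174 counts (0.12, -0.21 to 0.44). For transcription and RNA handling in mitochondria, all 7 genes were below 0, with a median of -0.23 and 6 intervals below 0. Tfb2m, an initiation factor of the mitochondrial RNA polymerase, had 1306 and 1057 counts (-0.41, -0.53 to -0.29), while Slirp had 1036 and 1081 (-0.05, -0.17 to 0.08). The mitochondrial rRNAs were not analysed here.

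Against other large protein complexes, the MRP median lay between that of the respiratory chain and that of the listed cytosolic ribosomal protein genes. The nuclear-encoded respiratory chain and ATP synthase were listed by symbol. This list also takes in Atp5sl and Atp5s, which RefSeq names Dmac2 and Dmac2l. Its 80 genes had a median of -0.35, with 75 intervals below 0. Of them, 44 were at or below 80% of the control level and 3 were lower by 2-fold, against 20.1% and 6.02% of all tested genes. These 3 had few counts, with 14 in NC and 1 in the knockdown library for Cox6a2, 56 and 13 for Cox8b, and 17 and 7 for Ndufa4l2. Among those with at least 100 counts, the lowest was Atp5k (1018 and 609 counts, -0.85, -0.995 to -0.70) and the highest Atp5l (1264 and 1334 counts, -0.03, -0.14 to 0.08), both subunits of ATP synthase. The list of cytosolic ribosomal protein genes was also drawn up by symbol. Its pattern left out Rpl3, Rpl4, Rpl5, Rpl6, Rpl7, Rpl8 and Rpl9, so it covers only part of that ribosome. The 70 genes it holds had a median of -0.06, with 35 intervals below 0 and 2 above. Of these 70 genes, 0 were at or below 80% of the control level. They ranged from Rpl28 (273 and 243 counts, -0.27, -0.53 to -0.02) to Rps27a (451 and 690 counts, 0.51, 0.33 to 0.68). This list also holds Rps3a2 (26965 and 28091 counts) and Rps3a3 (7068 and 7058), next to 327 and 358 for Rps3a1. How reads matching several such entries were counted is not given in the sources used here, so the values of this list are uncertain to that extent. In the knockdown library, the respiratory chain list summed to 78.0% of the control level and the cytosolic list to 96.0%. The MRP genes summed to 87.5%. These values are side by side only, since the difference between lists was not tested.

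**Figure D4:**
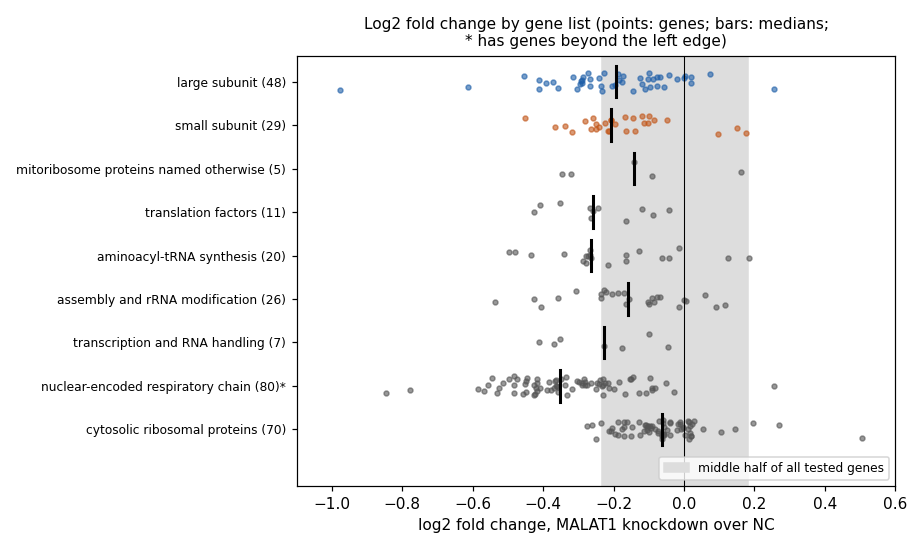
Log2 fold change (x axis) of the genes in each list (y axis, number of genes in brackets), where points are genes, black bars medians and the grey band the interquartile range of all tested genes. The medians of both subunits, -0.19 and -0.21, lie between those of the respiratory chain, -0.35, and of the listed cytosolic ribosomal proteins, -0.06. The cytosolic list lacks Rpl3, Rpl4, Rpl5, Rpl6, Rpl7, Rpl8 and Rpl9, and 3 respiratory chain genes lie beyond the left edge.

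The promoters of MRP genes were searched for letters that nuclear regulators of mitochondrial genes are known to bind. RefSeq promoters (GRCm38.p6, from 250 bases before to 50 after the start) were given for 68 of the 77 MRP genes. The core of NRF1 (GCGC, any 2 bases, GCGC) was found in 14 of these 68 genes (20.6%), against 13.6% of 11502 tested genes and 7.0% of all 27025 genes with a promoter. The ETS core CCGGAAG, which GABP binds, was found in 25 (36.8%), against 17.9% and 9.93%. The YY1 core AAGATGGC was found in 12 (17.6%), against 4.77% and 3.19%. Both strands were searched, none of the 3 motifs contains another, and at least 1 of them was found in 43 MRP genes (63.2%), against 31.5% of tested genes. The tested genes were not matched to the MRP genes for counts, and 73 of the 77 MRP genes had 1000 or more. The share among genes with as many counts was not computed.

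The log2 fold changes of MRP genes with and without each motif were set side by side, with no test. The medians were -0.25 with and -0.18 without the NRF1 core, -0.14 and -0.22 for the ETS core, and -0.19 and -0.19 for the YY1 core. The NRF1 core was in 11 of 42 large and 3 of 26 small subunit genes. Sequence before the start is shown for Mrpl12, the lowest well-counted gene, for Mrps18a, the protein whose name and place differ, and for Mrps6, the highest gene with an interval above 0, with each motif match in capitals and each stretch ending before the first annotated exon. They are chr11:120484487-120484612, chr17:46110854-46110985 and chr16:92058186-92058269 of GRCm38.p6, all on the plus strand and read 5′ to 3′. Mrpl12 holds the NRF1 core and Mrps18a the ETS core. Mrps18a also has a YY1 core 11 bases after the start, in the searched window but past the stretch shown, while the whole window of Mrps6 holds no match to the 3 motifs.
Mrpl12: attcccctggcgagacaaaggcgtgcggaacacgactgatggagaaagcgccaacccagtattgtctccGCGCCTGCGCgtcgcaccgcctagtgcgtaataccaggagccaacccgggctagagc
Mrps18a: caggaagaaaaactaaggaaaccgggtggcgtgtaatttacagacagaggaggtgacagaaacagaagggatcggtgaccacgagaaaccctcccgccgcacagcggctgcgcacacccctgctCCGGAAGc
Mrps6: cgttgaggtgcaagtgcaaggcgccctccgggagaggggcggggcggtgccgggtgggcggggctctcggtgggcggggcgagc
A match is a run of letters in this window only, and no binding was measured.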

How the data were processed

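Total RNA depleted of rRNA was sequenced by the authors from 1 NC and 1 MALAT1-knockdown culture. The deposited values are whole-number counts of reads per gene symbol, without normalization. The submitters' processing notes name HISAT2 and GRCm38, while the counting tool, annotation, strand setting and treatment of reads with several matches are not given in the sources used here.

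Each column was assigned by its label. Genes whose counts added up to 10 or more were kept, and TMM factors were computed with edgeR 4.0.16 in R 4.3.3. Log2 fold changes used a prior count of 0.5, and 95% Clopper-Pearson intervals came from scipy 1.17.1 in Python 3.11.15. No test over replicates was possible, and the quasi-likelihood test and DESeq2's test were not run. The computation was checked on simulated data. Intervals cover counting error only.

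Alternatives were library totals, DESeq2 1.42.0 size factors, upper-quartile factors, other count minimums, prior counts and folds, subunits by structure, and edgeR's exact test with a preset variation. The members, gene lists and naming rule were chosen with earlier results of these data known. Named genes were Malat1, the 6 lowest and 4 highest genes of each subunit with at least 100 counts, the 2 most abundant per length in each subunit, members under 100 counts, members whose symbol and place differ, genes with known roles, the ribosomal proteins with other symbols, and in each list both ends and any gene past 2-fold. Mrpl10, Mrpl11, Mrpl45, Ict1, Slc5a3 and Mrpl46 were named after their values were seen. Gene positions, lengths and overlaps came from GENCODE M21. The symbols Rcc1l, Mrm3 and Mrpl58 were matched to older symbols through RefSeq.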

Additional observations from a re-analysis of the deposited data

How the results depend on the processing

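With other library scalings (totals, upper-quartile factors, size factors of DESeq2), count minimums and prior counts, the median stayed below 0, from -0.20 to -0.18 over the MRP genes, from -0.19 to -0.17 over the large subunit and from -0.21 to -0.18 over the small subunit. The median over all tested genes ranged from -0.014 to 0.019. The difference between large and small subunit medians turned from 0.014 to -0.051 without the 32 genes with an exon overlap, an alternative chosen after the data were examined, so its sign depends on which genes enter. The log2 ratio of summed CPM was -0.21 for the large subunit without Mrpl12 and -0.19 for the small subunit without Mrps6. The number of MRP genes past the fold was 2 at 1.5-fold and 11 at a fold that equals 80% of control in place of 0. Those at 1.5-fold were Mrpl12 and Mrpl40, which had only 26 and 14 counts. Of all 17356 tested genes, 3503 were past 1.5-fold and 6227 past the smaller fold, in either direction. The 57 intervals below 0 became 1 gene with edgeR's exact test when a coefficient of variation of 0.1 between cultures was assumed, and 0 with 0.2 (1079 and 117 of all tested genes), so that calls depend on how much cultures are assumed to vary, which these libraries cannot show. Over all tested genes, 1710 were past 2-fold. This number was 5913 with at least 1 count summed, 607 with at least 10 counts in each library and 300 with at least 100 counts summed. No paired analysis was possible because each group has 1 library.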

Other observations

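Entries named as pseudogenes of MRP genes were outside the rule and are given as values. Mrpl48-ps had 346 counts in NC and 311 in the MALAT1-knockdown library, next to 617 and 665 for Mrpl48 itself. Mrpl23-ps1 had 17 and 29 counts, next to 98 and 126 for Mrpl23. Mrps36-ps1 had 15 and 44 counts, Mrps36-ps2 had 2 and 7, and Mrps36-ps3 was at 0 in both libraries. How reads matching both a gene and its copy were counted is not given in the sources used here, and the values of Mrpl48, Mrpl23 and Mrps36 are uncertain to that extent.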
